A study of Mus musculus with 22 samples.

Results

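Liver-made coagulation, fibrinolysis and complement genes were followed in livers of mice that lack Slc10a1, the gene for NTCP, the sodium-dependent carrier that brings conjugated bile acids from blood into hepatocytes. The set was a list of 39 genes named for these functions, chosen with earlier results of these data known. Of these, 38 were matched among the 47729 gene lines of the count tables, and Klkb1, the prekallikrein gene, was not matched and has no value here. By role, 13 of the 38 belonged to the coagulation cascade and 7 to anticoagulation or to fibrinolysis and its control. The other 18 were complement genes (6 initiators, 4 of the core and the alternative pathway, 4 of the terminal pathway, 4 regulators or receptors). All mice were male C57BL/6. Wild-type (WT) livers were taken at 4 weeks (n = 3), 8 weeks (n = 4) and 20 months (n = 3), and Slc10a1 knockout (KO) livers at 4 weeks (n = 3), 8 weeks (n = 6) and 20 months (n = 3). The mRNA of each liver was sequenced and read counts per gene were deposited, 22 libraries in all.

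Hepatocytes secrete most plasma clotting factors and most soluble complement proteins. In coagulation, a chain of serine proteases and their cofactors ends in thrombin, which turns fibrinogen into fibrin; protein C with its cofactor protein S, and the serpins, restrain the chain, and plasmin dissolves the clot. In complement, recognition by C1 or by mannose-binding lectins leads through C4, C2 and C3 to the terminal proteins. These, with C6, C8 and C9 among them, assemble a pore in the target membrane. Several of these genes, the fibrinogen chains and C3 among them, are acute phase genes, which the liver transcribes more strongly during inflammation.

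Values are CPM, read counts scaled to the size of each library with TMM factors over the 22 libraries; groups were compared with edgeR's quasi-likelihood test, adjusted over all genes tested, with a threshold of 0.05. Slc10a1 stood at 604, 710.3 and 684 CPM in WT and 112, 264 and 148 CPM in KO livers at 4 weeks (log2 fold change -1.93 ± 0.33, adjusted p = 0.0117). At 8 weeks it stood at 432 to 464 CPM in WT and 49.2 to 93.3 (median 66.1) CPM in KO (-2.72 ± 0.16, adjusted p = 9e-05), and at 20 months at 152, 365 and 286 CPM in WT and 103, 90.5 and 91.3 CPM in KO (-1.49 ± 0.32, adjusted p = 0.821). The KO libraries lay below every WT library of their age, although the 20-month difference did not pass. The tissue label was checked with 11 hepatocyte markers, whose summed level was 56927 to 222087 CPM per library. Gene counts totalled 5496425 to 26789350 per library, with the lowest totals at 4 weeks. The 4-week libraries were sequenced as pairs and the others as single reads, by their file names, so age and sequencing layout or run cannot be told apart between ages.

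Several libraries stood apart. KO library 1 at 4 weeks had Alb, the albumin gene, at 28078 CPM, against 148033 and 112319 CPM in the other KO livers of that age. At 20 months, WT libraries 1 and 2 had summed levels of 19 acute phase genes of 144019 and 79614 CPM, against 8373 CPM in WT library 3 and 9071 to 9626 CPM in KO. Their 10 neutrophil markers summed to 3543 and 426 CPM, against 9.10 CPM in WT library 3 and 9.07 to 20.9 CPM in KO, where Ly6g was at 0. Several results that rest on these libraries are given with and without them. In bulk liver RNA, fewer cells of a type and less RNA per cell cannot be told apart.

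All 4 terminal complement genes measured fell at 4 weeks, and the fibrinogen genes were among the highest per length and ranged widely at 20 months. The sequence just before the start of these genes is therefore shown for C8a, C8b, C8g, C9, Fgb and Fgg, 5′ to 3′ on the gene's own strand; distances are from the RefSeq start, and the C9 sequence ends where its GENCODE gene begins. Sequences were taken from RefSeq (GRCm38.p6), and a promoter was matched for 29 of the 38 genes. Capitals mark matches, on either strand, to short motifs named for liver and inflammation factors: GTTAAT (a core of HNF1 sites), TTNNGNAA (C/EBP), TTCNNNGAA (STAT) and CTGGGAA (core of the interleukin-6 response element).
C8a (chr4:104876399-104876548, minus strand): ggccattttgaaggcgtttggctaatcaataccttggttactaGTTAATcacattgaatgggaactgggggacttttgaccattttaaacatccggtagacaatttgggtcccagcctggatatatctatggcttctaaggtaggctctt
C8b (chr4:104766167-104766316, plus strand): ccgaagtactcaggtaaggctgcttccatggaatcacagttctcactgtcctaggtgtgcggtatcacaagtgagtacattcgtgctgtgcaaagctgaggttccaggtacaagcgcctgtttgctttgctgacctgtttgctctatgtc
C8g (chr2:25501720-25501869, minus strand): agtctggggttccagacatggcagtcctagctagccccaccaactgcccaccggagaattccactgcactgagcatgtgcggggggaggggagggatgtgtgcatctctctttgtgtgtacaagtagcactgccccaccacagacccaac
C9 (chr15:6445196-6445326, plus strand): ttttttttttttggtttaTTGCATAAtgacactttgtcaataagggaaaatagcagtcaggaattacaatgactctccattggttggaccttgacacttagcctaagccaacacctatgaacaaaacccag
Fgb (chr3:83049864-83050013, minus strand): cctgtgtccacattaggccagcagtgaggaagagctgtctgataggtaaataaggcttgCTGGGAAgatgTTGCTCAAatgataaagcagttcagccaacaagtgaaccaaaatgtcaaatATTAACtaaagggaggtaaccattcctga
Fgg (chr3:83007574-83007723, plus strand): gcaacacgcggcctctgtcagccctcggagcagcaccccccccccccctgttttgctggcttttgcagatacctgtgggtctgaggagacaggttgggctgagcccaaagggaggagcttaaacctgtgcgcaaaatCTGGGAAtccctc
C8a held GTTAAT 107 bases before its start and C9 held a C/EBP match 132 bases before its start, while no searched motif matched in the C8b and C8g windows. Fgb held CTGGGAA at 91 bases, a C/EBP match at 80 and GTTAAT on the other strand at 29, and Fgg held CTGGGAA at 13. The Fga window, not shown, held GTTAAT at 43 bases and a C/EBP match at 135. Among the 29 promoters of members, in windows of 150 bases, GTTAAT occurred in 6, against 3.71% of 32843 promoters of all genes. The C/EBP motif occurred in 10 (22.7% of all), the STAT motif in 3 (4.09% of all), CTGGGAA in 5 (5.5% of all) and TATAAA, the TATA box, in 1 (7.58% of all). The STAT and CTGGGAA matches overlapped in F9 and Masp2. These are matches of letters, not sites shown to be bound. C8a and C8b lie close together on chromosome 4 (chr4:104815679-104876398, minus strand, and chr4:104766317-104804548, plus strand), and the fibrinogen genes form a cluster on chromosome 3.

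Per length, the fibrinogen genes led the set in WT livers at 4 weeks. At 4 weeks in WT, Fgg (gamma chain) stood at 2379 ± 151 CPM per kb of exon (SD, n = 3), Fgb (beta chain) at 1898 ± 252 and Fga (alpha chain) at 1403 ± 124. They were followed by C3, the central complement protein, at 1232 ± 107 and Vtn, vitronectin, at 1125 ± 161 CPM per kb. The terminal genes lay lower, with C9 at 267 ± 64.4, C8a at 245 ± 85.7, C8b at 204 ± 34.8 and C8g at 174 ± 39.05 CPM per kb, and neighbours in this order lay within their SD. The lowest were Cfb (complement factor B) at 2.56 ± 0.588, F8 (coagulation factor VIII, made largely by endothelium) at 2.69 ± 0.574 and C5ar1 (the C5a receptor of myeloid cells) at 0.389 ± 0.0507 CPM per kb. The same 5 genes, Fga, Fgb, Fgg, C3 and Vtn, held the top 5 places in WT livers at 8 weeks, where C3 ranked second, and at 20 months.

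In KO livers at 4 weeks, 9 complement genes and Proc, the gene for protein C, were lower, and Pros1, the gene for protein S, was higher. Of 37 members tested (C5ar1 was too low), 10 were lower, against 5.6% of all 11144 genes tested, and 1 was higher, against 5.17% of all genes; 26 did not pass. Of the 17 complement genes tested, 9 fell and none rose, all 17 had log2 fold changes below 0, and their median was -0.94, against 0.01 for all genes. DESeq2 called no complement gene higher either. In edgeR, 13 of the 17 had an unadjusted p below 0.05, as did 3240 of all 11144 genes. In 14 of the 17, every KO library lay below every WT library, as in 2061 of all 11144 genes. Of the 20 coagulation, anticoagulant and fibrinolysis genes, 1 rose, 1 fell and 18 did not pass, with a median of -0.08. Every KO library lay above every WT library in 4 of these 20 and below in 5. Over all 11144 genes these counts were 1882 and 2061.

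**Figure D1:**
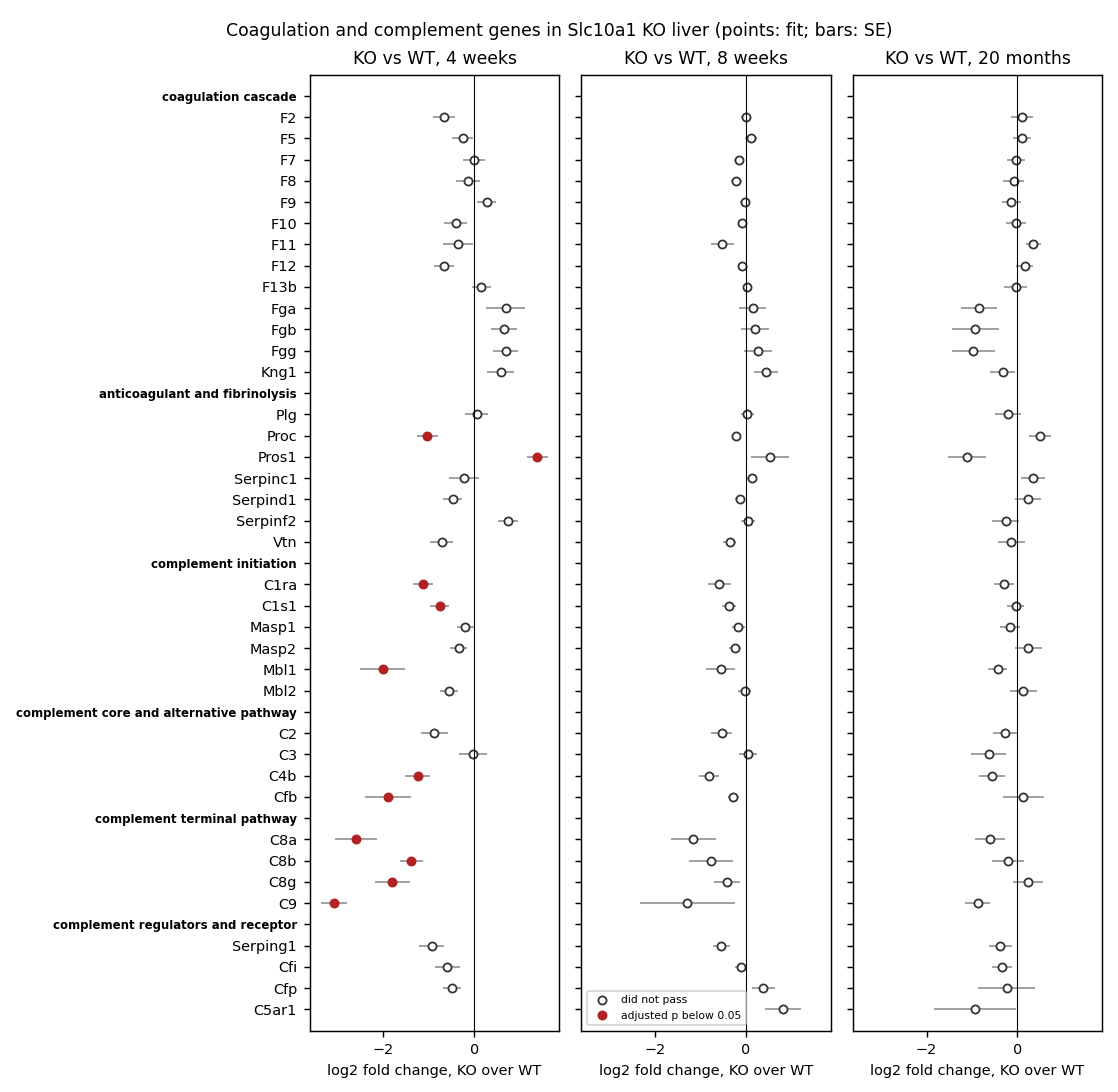
Log2 fold change of KO over WT (x axis) for each of the 38 genes (y axis, by role) at 4 weeks, 8 weeks and 20 months; points are fitted values, bars their SE, filled points have an adjusted p below 0.05. At 4 weeks the 4 terminal complement genes lie between -3.09 and -1.38, and at 8 weeks and 20 months no point is filled.

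All 4 terminal pathway genes fell, with a median of -2.21. C9, whose protein forms the wall of the pore, was at 492, 768 and 786 CPM in WT and 95.8, 60.8 and 83.0 CPM in KO livers. The groups were far apart: the highest KO library lay below the lowest WT library, and the fitted level was 8.50-fold lower (log2 fold change -3.09 ± 0.29, adjusted p = 0.000814). C8a, the alpha chain of C8, was at 536, 1016 and 1121 CPM in WT and 73.2, 235 and 126 CPM in KO, 6.11-fold lower (-2.61 ± 0.46, adjusted p = 0.013). C8b, the beta chain, was at 432, 521 and 609 CPM in WT and 151, 253 and 193 CPM in KO, 2.61-fold lower (-1.38 ± 0.26, adjusted p = 0.0155). C8g, the lipocalin-like gamma chain, was at 194, 281 and 305 CPM in WT and 38.3, 114 and 69.5 CPM in KO, 3.49-fold lower (-1.80 ± 0.38, adjusted p = 0.0229). None of the 4 genes had a KO library within the WT range, and for all 3 C8 chains KO library 1 was the lowest and KO library 2 the highest of the KO livers. C8g overlaps Fbxw5, and C8a overlaps Gm17662, on the opposite strand, and reads from these stretches cannot be assigned with certainty because the strand setting of the counting is not known.

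C9 kept its call when any 1 of the 6 libraries was left out, whereas the other members that passed lost theirs in 2 to 5 of these 6 fits. Without WT library 2 or without WT library 3, C9 was the 1 member that passed. In a fit of all 22 libraries, in which all groups share 1 estimate of the spread, C9 had an adjusted p of 0.0705, C8b of 0.0878 and Pros1 of 0.0592, while 12 members passed as lower in that fit.

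**Figure D2:**
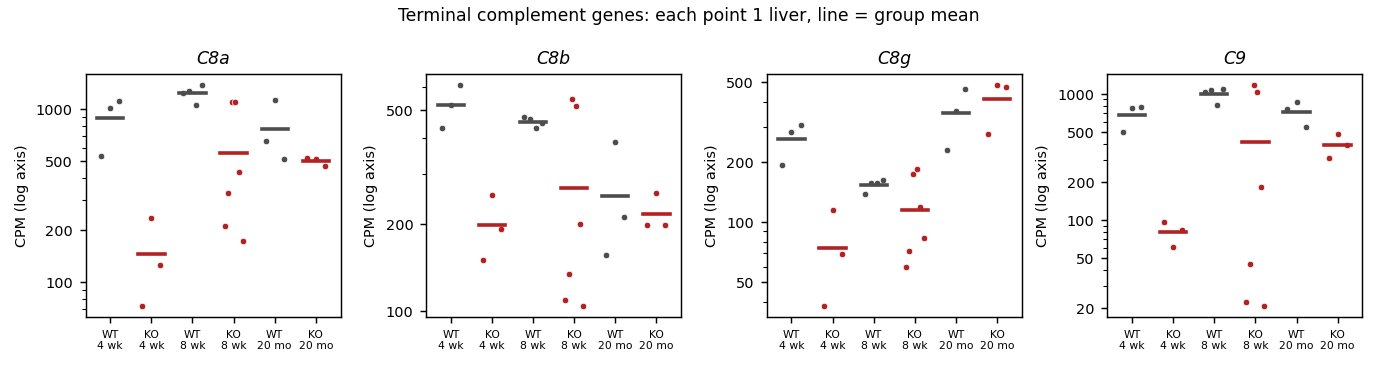
CPM (log axis) of the 4 terminal complement genes in each liver (points) of the 6 groups, with the group mean as a line. The 3 KO livers at 4 weeks sit below all WT livers of that age, and the 6 KO livers at 8 weeks are spread from 21.0 to 1167 CPM for C9.

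Among the initiators, 3 of 6 fell. C1ra and C1s1 encode the proteases of the C1 complex. C1ra was at 144, 196 and 199 CPM in WT and 66.4, 85.3 and 94.6 CPM in KO livers (-1.13 ± 0.22, adjusted p = 0.0179). C1s1 was at 209, 289.7 and 240.2 CPM in WT and 125, 155 and 153 CPM in KO (-0.76 ± 0.21, adjusted p = 0.0493). Mbl1, mannose-binding lectin A, showed the larger change, from 262, 279 and 328 CPM in WT to 23.7, 125 and 66.0 CPM in KO, 4.04-fold lower (-2.01 ± 0.50, adjusted p = 0.0387). KO library 1 was the lowest for all 3 genes and no library of the groups overlapped. Mbl2, mannose-binding lectin C, did not pass, with 395, 457 and 414 CPM in WT livers and 255, 284 and 319 CPM in KO livers (-0.56 ± 0.20, adjusted p = 0.105), although the groups did not overlap. The lectin pathway proteases did not pass either, with Masp1 at -0.20 ± 0.18, adjusted p = 0.514 and Masp2 at -0.34 ± 0.18, adjusted p = 0.241.

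Of the core and alternative pathway genes, C4b and Cfb fell. C4b, which encodes C4, was at 488, 768 and 784 CPM in WT and 218, 356 and 284 CPM in KO livers, 2.37-fold lower (-1.24 ± 0.28, adjusted p = 0.0291). Its close copy C4a was at 2.09 to 4.66 CPM in WT and 2.61 to 4.65 CPM in KO, and reads shared by the copies may be miscounted. Cfb, the protease of the alternative pathway, was low throughout, at 5.33, 8.36 and 8.03 CPM in WT and 0.523, 2.30 and 3.10 CPM in KO (-1.90 ± 0.50, adjusted p = 0.045), which rested on 3 to 14 counts per KO library. C2, the classical pathway protease, did not pass: WT livers held 9.14, 18.7 and 16.1 CPM and KO livers 7.49, 9.43 and 6.86 CPM (-0.88 ± 0.30, adjusted p = 0.0978). C2 and Cfb share an overlapping gene model, Gm20547, which can leave their reads ambiguous. C3 did not differ beyond its spread, at 5702, 6695 and 6604 CPM in WT and 4984, 5018 and 8616 CPM in KO (-0.03 ± 0.31, adjusted p = 0.963), and its sign turned when WT library 2 (0.01), WT library 3 (0.01), KO library 1 (0.12) or KO library 2 (0.12) was left out.

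The regulators did not pass. Every KO library lay below every WT library for all 3 that were tested, as in 2061 of all 11144 genes. Serping1, the C1 inhibitor, was at 496, 678 and 506 CPM in WT and 209, 394 and 271 CPM in KO (-0.94 ± 0.28, adjusted p = 0.0661), and passed in DESeq2. Cfi, factor I, which cleaves C3b and C4b, had a log2 fold change of -0.59 ± 0.27, adjusted p = 0.19, and Cfp, properdin, made mainly by leukocytes, of -0.49 ± 0.20, adjusted p = 0.143.

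The anticoagulant protein C pathway moved in opposite directions. Proc, protein C, was at 621, 821 and 956 CPM in WT and 382, 371 and 416 CPM in KO livers at 4 weeks, 2.04-fold lower (-1.03 ± 0.23, adjusted p = 0.0289). Pros1, its cofactor protein S, was at 136, 104 and 102 CPM in WT and 361, 243 and 295 CPM in KO, 2.63-fold higher (1.39 ± 0.23, adjusted p = 0.0102). For both genes all 3 KO livers lay outside the WT range. Serpinf2, antiplasmin, was at 459, 425 and 403 CPM in WT and 827, 649 and 677 CPM in KO, with every KO library higher, and just missed the threshold (0.75 ± 0.21, adjusted p = 0.0556); DESeq2 called it (0.76, adjusted p = 0.00536). Vtn (-0.71, adjusted p = 0.0996) and Serpind1, heparin cofactor II (-0.47, adjusted p = 0.178), did not pass, nor did Plg, plasminogen (0.06, adjusted p = 0.902). Serpinc1, antithrombin, was at 1589, 1905 and 1791 CPM in WT and 811, 1873 and 1821 CPM in KO (-0.23 ± 0.34, adjusted p = 0.697). Only KO library 1 of Serpinc1 lay below WT, and without it the value turned to 0.08.

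**Figure D3:**
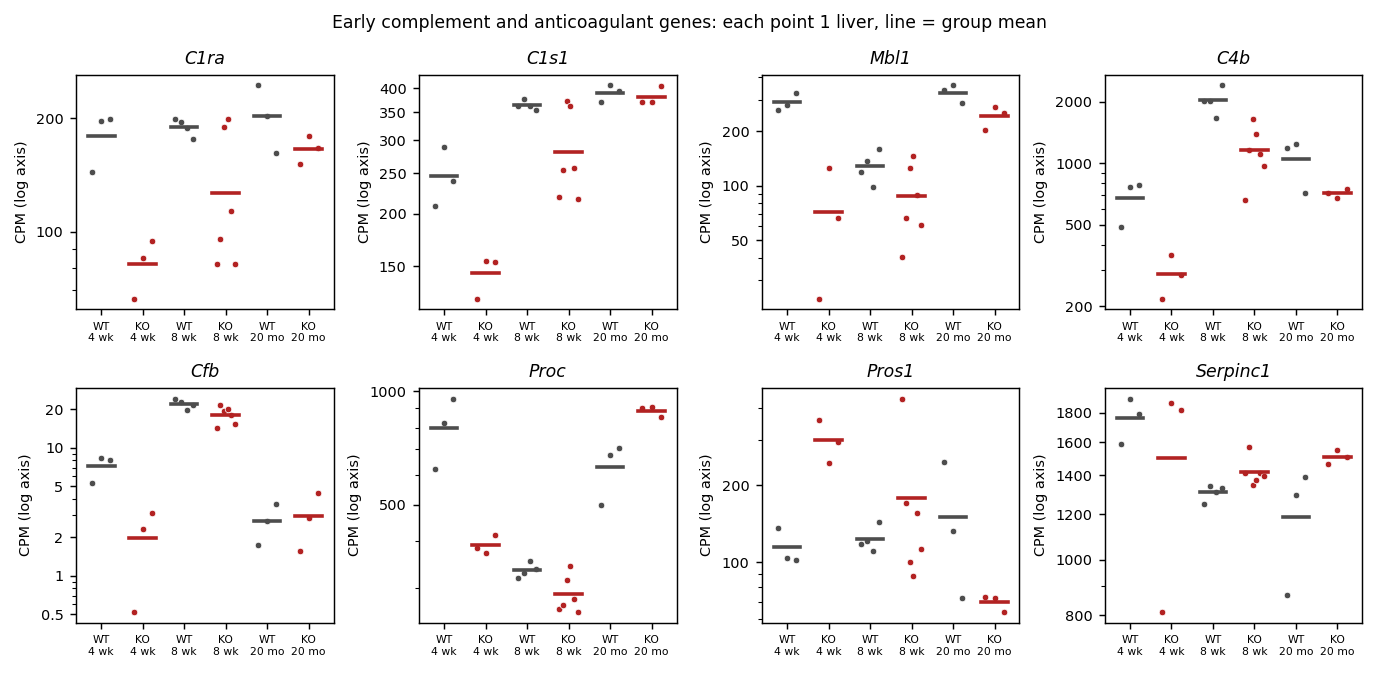
CPM (log axis) of C1ra, C1s1, Mbl1, C4b, Cfb, Proc, Pros1 and Serpinc1 in each liver (points) of the 6 groups, with the group mean as a line. At 4 weeks all KO livers lie below all WT livers for C1ra, C1s1, Mbl1, C4b, Cfb and Proc and above them for Pros1, and at 20 months Proc in KO lies above WT.

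None of the 13 cascade genes passed in edgeR at 4 weeks; 3 had an unadjusted p below 0.05, and DESeq2 called 4 of them (F2 and F12 lower, Fgb and Fgg higher). F2, prothrombin, was at 1759, 2273 and 2453 CPM in WT and 1203, 1339 and 1532 CPM in KO, with all KO libraries lower (-0.67 ± 0.25, adjusted p = 0.114). F12, which starts the contact pathway, had all KO libraries lower as well (-0.66 ± 0.22, adjusted p = 0.0912). The fibrinogen genes went the other way without passing. Fga was at 4606, 4203 and 3861 CPM in WT and 3495, 11456 and 5441 CPM in KO (0.69 ± 0.42, adjusted p = 0.313), Fgb at 6523, 6841 and 8324 and 9052, 13788 and 11208 CPM (0.66 ± 0.29, adjusted p = 0.176), and Fgg at 4948, 4679.6 and 5309 and 6827, 9690.5 and 7599 CPM (0.70 ± 0.27, adjusted p = 0.13). All KO libraries lay above WT for Fgb and Fgg, while KO library 1 lay below WT for Fga. Of the 13 cascade genes, 2 lay wholly above and 2 wholly below WT, against 1882 and 2061 of all 11144 genes. Without KO library 1, all 3 chains passed as higher (1.02, 0.81 and 0.81, adjusted p = 0.0482, 0.0343 and 0.0295) and 6 members in all were higher. The other cascade genes, F5, F7, F8, F9, F10, F11, F13b and Kng1, had log2 fold changes from -0.41 to 0.59, and Kng1, kininogen, can share reads with its copy Kng2.

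Further genes of the same pathways, not on the list of 39, were also tested at 4 weeks. Over all 11144 genes tested, 5.17% were higher and 5.6% lower. Of 22 other complement genes tested, none rose and 3 fell (DESeq2 also called none higher; 7 had an unadjusted p below 0.05). These were C6, another pore protein (-2.02 ± 0.25, adjusted p = 0.00364; 68.0, 82.2 and 74.7 CPM in WT, 24.9, 16.1 and 13.9 CPM in KO), Clu, clusterin, an inhibitor of the terminal complex (-1.34 ± 0.23, adjusted p = 0.0116), and C1rl (-0.68 ± 0.17, adjusted p = 0.0412). Of 16 other coagulation genes tested, 2 rose and 1 fell: F3, tissue factor (1.43 ± 0.33, adjusted p = 0.0301), Hrg, histidine-rich glycoprotein (1.34 ± 0.29, adjusted p = 0.025), and Proz, protein Z (-0.94 ± 0.22, adjusted p = 0.0342). Of 14 liver transcription factors and coactivators, 3 rose: Ppargc1a (1.60 ± 0.20, adjusted p = 0.00366), Cebpd (1.21 ± 0.24, adjusted p = 0.0207) and Stat3 (1.13 ± 0.23, adjusted p = 0.0225). None fell past the threshold, but 11 of the 14 had log2 fold changes below 0, and DESeq2 called 3 higher and 1 lower. Cebpa, which did not pass in edgeR, was at 185, 322 and 453 CPM in WT and 183, 119 and 118 CPM in KO. In the fit of all 22 libraries C6, F3, Ppargc1a and Cebpd did not pass, with adjusted p = 0.193, 0.103, 0.154 and 0.206.

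Markers of other liver cells at 4 weeks stood beside these changes as follows. Of 12 Kupffer cell and macrophage markers, 3 were lower and 1 higher, and their sum was 844 to 1020 CPM in WT and 544 to 765 CPM in KO. Of 10 sinusoidal endothelial markers, 2 were lower and none higher, with sums of 450 to 541 and 346 to 406 CPM; 4 had an unadjusted p below 0.05, and DESeq2 called none higher. Of 11 hepatocyte markers, 1 was higher and none lower, with sums of 162790 to 186987 CPM in WT and 95992 to 222087 CPM in KO; 2 had an unadjusted p below 0.05, and DESeq2 called none lower. Of 10 stellate cell markers, 1 was higher and none lower, with sums of 341 to 427 CPM in WT and 438 to 597 CPM in KO; 4 had an unadjusted p below 0.05, and DESeq2 called none lower. The 6 cholangiocyte markers summed to 35.4 to 41.0 CPM in WT and 17.8 to 27.7 CPM in KO, and the 8 lymphocyte markers to 6.91 to 9.25 and 2.61 to 3.32 CPM. The Kupffer cell and macrophage, endothelial, stellate, cholangiocyte and lymphocyte sums did not overlap between the groups. Among these, only the stellate sum was higher in KO. The 19 acute phase genes (18 tested) held 3 higher and 3 lower, with sums of 9228 to 14882 and 12496 to 14767 CPM. The part of these levels in the members' changes was not tested.

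At 8 weeks no member passed. Of 38 tested, edgeR and DESeq2 each called 0 higher, against 0.00689% of 14522 genes in edgeR, and 0 lower, against 0.0207%; 7 members had an unadjusted p below 0.05, as did 1517 of all genes. The complement median was -0.39 and that of the coagulation, anticoagulant and fibrinolysis genes 0.01, against 0.02 for all genes. The KO livers differed strongly among themselves. C9 was at 809 to 1088 CPM in the 4 WT livers and at 22.3, 45.1, 1167, 1034, 181 and 21.0 CPM in KO libraries 1 to 6, so libraries 3 and 4 lay in or above the WT range and the other 4 far below it. The fitted difference carried a wide error (-1.29 ± 1.05, adjusted p = 0.609). C8a followed the same division, at 1061 to 1379 CPM in WT and 211, 327, 1104, 1098, 432 and 173 CPM in KO (-1.16 ± 0.50, adjusted p = 0.474), and so did C8b, at 433 to 470.3 and 109, 134, 543, 516, 201 and 105 CPM (-0.77 ± 0.48, adjusted p = 0.536). C8g was at 139 to 163 CPM in WT and 59.5, 72.2, 174, 185, 119 and 83.5 CPM in KO (-0.41 ± 0.30, adjusted p = 0.572), again with libraries 3 and 4 on top.

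Counted over the 18 complement genes, 13, 11, 12 and 14 lay below all 4 WT livers in KO libraries 1, 2, 5 and 6, against 4 and 4 in libraries 3 and 4. Above all 4 WT livers lay 2, 4, 4 and 2 of the 18 in libraries 1, 2, 5 and 6, and 4 and 3 in libraries 3 and 4. Among the 20 coagulation, anticoagulant and fibrinolysis genes the counts below WT were 6, 6, 5 and 10 in libraries 1, 2, 5 and 6, and 11 and 4 in libraries 3 and 4. The counts above WT for these 20 were 9, 10, 5 and 2 in libraries 1, 2, 5 and 6, and 1 and 4 in libraries 3 and 4. These counts were made after the values were seen and carry no test. The share over all genes was not counted, so they cannot be set against it. Slc10a1 was as low in libraries 3 and 4 (69.9 and 76.0 CPM) as in the other KO livers. Alb was at 146959, 138770.0, 123029 and 114319 CPM in KO libraries 1, 2, 5 and 6, and at 57897 and 46164 CPM in libraries 3 and 4, near the 51555 to 62690.3 CPM of WT. The 12 Kupffer cell and macrophage markers summed to 436 to 1124 CPM in KO, lowest in libraries 3 and 4, and 475 to 637 CPM in WT. The 10 stellate cell markers summed to 1009, 807, 788 and 766 CPM in KO libraries 1, 2, 5 and 6, to 382 and 519 CPM in libraries 3 and 4, and to 419 to 575 CPM in WT. The 10 endothelial markers summed to 808, 614, 670.4 and 640.1 CPM in libraries 1, 2, 5 and 6, to 519.5 and 521 CPM in libraries 3 and 4, and to 525 to 577 CPM in WT. C6 was at 323 to 461 CPM in WT and 28.5, 30.1, 652, 518, 33.1 and 33.5 CPM in KO. The part of these levels in the members' spread was not tested.

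The 6 members with the smallest unadjusted p at 8 weeks were C4b, Serping1, Vtn, C8a, C1s1 and C1ra, all lower in the fit, each with an adjusted p of 0.474 in edgeR. C4b was at 1669.9 to 2414 CPM in WT and 662 to 1652 (median 1136) CPM in KO, and every KO liver lay below every WT liver (-0.81 ± 0.22). It was the 1 member with groups apart in that direction, as were 154 of all 14522 genes. Serping1 was at 625 to 899 CPM in WT and 339 to 651 (median 539.9) CPM in KO (-0.54 ± 0.19), and Vtn at 1750.5 to 2261 and 1131 to 1861 (median 1658) CPM (-0.36 ± 0.15); both overlapped. C1ra was at 177 to 199 CPM in WT and 81.9 to 198 (median 104) CPM in KO (-0.58 ± 0.26) and C1s1 at 355 to 377 and 217 to 373 (median 256) CPM (-0.37 ± 0.16). For both, KO libraries 3 and 4 lay within or near the WT range and the other 4 below it. Mbl1 was at 98.3 to 159.5 CPM in WT and 40.2 to 146 (median 77.6) CPM in KO (-0.55 ± 0.31), and Mbl2 at 181 to 262 and 179 to 289 (median 205) CPM (-0.02 ± 0.15), both overlapping.

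Prothrombin and antithrombin lay close together in the groups at 8 weeks. F2 was at 1224 to 1355 CPM in WT and 1230.0 to 1377 (median 1286) CPM in KO (0.00 ± 0.10). Serpinc1 was at 1250.0 to 1344 and 1348 to 1570.2 (median 1405) CPM, with every KO liver slightly above WT (0.13 ± 0.10). Serpinc1 was the 1 member with groups apart in that direction, as were 186 of all 14522 genes. The fibrinogen genes overlapped widely, with Fga at 4412 to 8739 CPM in WT and 4799.9 to 11403 (median 6194) CPM in KO (0.15 ± 0.29), Fgb at 3882 to 7472 and 3951 to 9921 (median 5662) CPM (0.21 ± 0.30) and Fgg at 2802 to 5204 and 2908 to 7739 (median 4062) CPM (0.28 ± 0.31). C3 was at 7935 to 12246 CPM in WT and 7987 to 12964 (median 10609) CPM in KO (0.05 ± 0.20). Neither Proc (-0.21 ± 0.10) nor Pros1 (0.54 ± 0.42) passed. Pros1 was at 436 CPM in KO library 1, while KO libraries 2 to 6, at 170.2, 101, 88.5, 156 and 112 CPM, lay below, within and above the 110.2 to 143 CPM of WT. Of the further coagulation (17), fibrinolysis (9), complement (24) and transcription factor (14) genes tested, edgeR called 0 in each list; 2, 3, 6 and 4 had an unadjusted p below 0.05, and DESeq2 called 0, 0, 1 (higher) and 0.

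At 20 months again no member passed: edgeR and DESeq2 called 0 of 38 in either direction, edgeR called 0% of 13966 genes higher and 0% lower, and DESeq2 called 7 genes higher and 46 lower. In edgeR 2 members, C9 and Pros1, had an unadjusted p below 0.05, as did 772 of all genes. The median was -0.28 for complement and -0.06 for the other members, against 0.00 for all genes. Every KO library lay above every WT library for 3 members (Proc, F11 and Serpinc1) and below for 3 (C9, Mbl1 and Cfi). Over all 13966 genes these counts were 761 and 674. Cfi was at 865, 1011 and 778 CPM in WT and 627, 741 and 735 CPM in KO. C9 was at 749, 861 and 548 CPM in WT and 311, 478 and 392 CPM in KO livers, with all KO libraries below WT (-0.87 ± 0.28, adjusted p = 0.821). C8a was at 657, 1126 and 512 CPM in WT and 521, 513 and 472 CPM in KO (-0.61 ± 0.33, adjusted p = 0.821), overlapping. Mbl1 was at 337, 361 and 288 CPM in WT and 203, 274 and 255 CPM in KO, all lower (-0.43 ± 0.21, adjusted p = 0.821). Proc was at 499.7, 675 and 707 CPM in WT and 903, 905 and 855 CPM in KO, all higher, with the opposite sign to 4 weeks (0.50 ± 0.23, adjusted p = 0.821). F11, factor XI, at 55.4, 72.4 and 59.0 CPM in WT and 84.18, 81.79 and 72.99 CPM in KO, was also higher in each KO liver (0.36 ± 0.17, adjusted p = 0.821).

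The fibrinogen genes and C3 at 20 months were highest in the WT libraries with high acute phase genes. Fgb was at 19684, 12439 and 5419 CPM in WT libraries 1 to 3 and 7339, 6643 and 5862 CPM in KO (-0.92 ± 0.51, adjusted p = 0.821). Fga was at 5753, 5209.8 and 2270.5 and 2374, 2510.5 and 2512 CPM (-0.84 ± 0.40, adjusted p = 0.821), and Fgg at 15219, 10068 and 4675 and 5266, 5091 and 4928 CPM (-0.97 ± 0.47, adjusted p = 0.821). C3 showed the same order, at 7373, 6572 and 3309 CPM in WT and 3833, 3576 and 3759 CPM in KO (-0.63 ± 0.38, adjusted p = 0.821). In each of these genes WT libraries 1 and 2 were the 2 highest and WT library 3 was below all KO livers. Without WT libraries 1 and 2 the values became 0.29 (Fgb), 0.12 (Fga), 0.12 (Fgg) and 0.17 (C3), all reversed, with 1 WT library left that is assumed to vary like the others. Pros1 was at 246, 132 and 72.1 CPM in WT and 73.0, 72.7 and 63.9 CPM in KO (-1.11 ± 0.42, adjusted p = 0.821), again with WT library 3 beside the KO livers. Without WT libraries 1 and 2, the log2 fold change was -0.05 for Pros1, -0.48 for C9, -0.24 for Mbl1, 0.33 for Proc, 0.43 for F11 and 0.11 for Serpinc1. F2 (0.10 ± 0.24) overlapped between the groups, and Serpinc1 was higher in each KO liver without passing (0.35 ± 0.27). Mbl2 also overlapped (0.13 ± 0.30), and its value was -0.33 without WT libraries 1 and 2. Saa1, serum amyloid A, stood at 46572, 22024 and 212 CPM in these WT livers and 258, 168 and 157 CPM in KO. Of the further coagulation (17), fibrinolysis (7), complement (24) and transcription factor (14) genes, edgeR called 0 in each list; 3, 2, 1 and 2 had an unadjusted p below 0.05, and DESeq2 called 1 (lower), 0, 1 (lower) and 0.

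**Figure D4:**
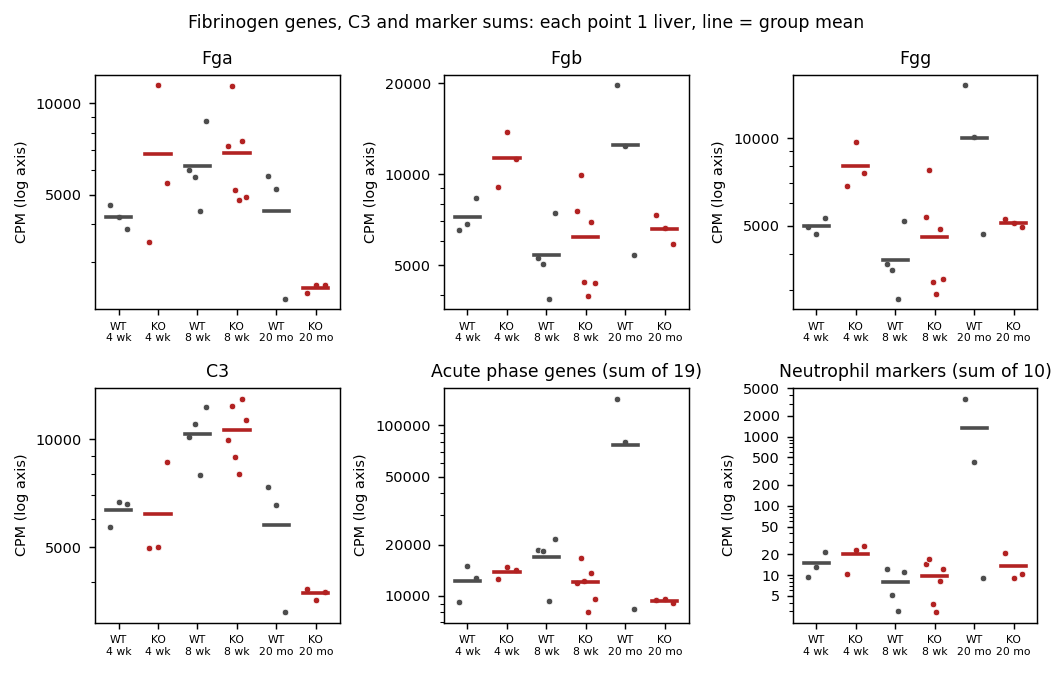
CPM (log axis) of Fga, Fgb, Fgg and C3 and the summed CPM of 19 acute phase genes and of 10 neutrophil markers in each liver (points) of the 6 groups, with the group mean as a line. At 20 months WT livers 1 and 2 lie above the KO livers in all 6 plots, and WT liver 3 lies near or below them.

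Whether the KO effect differed with age was tested in 1 fit of all 22 libraries. In the joint test of the 3 ages, 1 member passed, Proc (adjusted p = 0.0154), against 1.62% of 15877 genes, and DESeq2 called 8. Between 20 months and 4 weeks the KO effect was more positive for 4 members, against 2% of genes, and more negative for 1, against 2.52%. Proc went from -1.03 at 4 weeks to 0.50 at 20 months (difference 1.54 ± 0.25, adjusted p = 0.00408). F12 (0.82 ± 0.21, adjusted p = 0.0336), Cfb (2.06 ± 0.57, adjusted p = 0.0454) and C8g (2.04 ± 0.58, adjusted p = 0.0482) also differed upwards, and Pros1 downwards (-2.50 ± 0.66, adjusted p = 0.0368). None of the 5 passed without WT libraries 1 and 2 of 20 months, where the differences were 1.33 for Proc (adjusted p = 0.0811), 0.82 for F12 (0.181), 1.59 for Cfb (0.298), 1.62 for C8g (0.323) and -1.47 for Pros1 (0.339). Without WT library 2 or without WT library 3 of 4 weeks, 1 member passed as more positive and none as more negative, and without library 3 the joint test called no member. C9 had a difference of 2.22 ± 1.44, adjusted p = 0.375 and did not pass.

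Between 8 and 4 weeks edgeR called 0 members more positive, against 0.157% of genes, and 0 more negative, against 0.17%; 7 members had an unadjusted p below 0.05, and DESeq2 called 4 more positive (F2, F12, Proc and Cfb). Between 20 months and 8 weeks edgeR called 0 in either direction, as for 0% of genes higher and 0% lower, with 5 members at an unadjusted p below 0.05 and Proc called in DESeq2. For the terminal genes the difference of 8 weeks from 4 weeks was 1.82 ± 1.30 for C9, 1.47 ± 0.73 for C8a, 0.63 ± 0.65 for C8b and 1.40 ± 0.52 for C8g, with none past the threshold.

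In WT livers the members also differed between ages, in comparisons that reuse the WT livers above and in which sequencing layout or run changed with age. From 4 to 8 weeks, 13 of 38 members were higher, against 27.5% of 14003 genes, and 14 were lower, against 25.7%, so the share called was somewhat above that of all genes. All 4 core and alternative pathway genes were higher at 8 weeks: C4b by 1.60 ± 0.19, Cfb by 1.62 ± 0.17, C2 by 1.36 ± 0.19 and C3 by 0.72 ± 0.16 on the log2 scale. Masp1 (1.50 ± 0.08), F8 (1.38 ± 0.13) and F5, the cofactor of activated factor X (0.82 ± 0.11), were higher too. Proc (-1.24 ± 0.14), Mbl1 (-1.15 ± 0.16), Cfp (-1.04 ± 0.14) and Mbl2 (-0.90 ± 0.12) were among those that fell. In the fit of all 22 libraries 7 members were higher and 7 lower.

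From 8 weeks to 20 months, 8 members were higher in WT, against 27.7% of 14322 genes, and 9 were lower, against 26.8%. Cfb fell most (-3.10 ± 0.25), from 19.6 to 24.3 CPM to 1.74, 2.70 and 3.64 CPM. F8 (-2.89 ± 0.15), Masp1 (-2.68 ± 0.17) and F5 (-1.87 ± 0.16) also fell, each of which had been higher at 8 than at 4 weeks. Mbl2 (1.70 ± 0.24), Mbl1 (1.31 ± 0.18), C8g (1.14 ± 0.22) and Proc (0.86 ± 0.15) rose, each of which had been lower at 8 than at 4 weeks. These reversals share the 8-week WT livers, so the paired values are given side by side only. Fgg passed as higher (1.35 ± 0.41) and Fgb did not (1.17 ± 0.44), both with WT libraries 1 and 2 on top. Without those libraries, which leaves 1 WT library at 20 months, the log2 fold change of Fgg was 0.30. In the same fit Cfb was at -2.60, F8 at -2.54, Masp1 at -2.70 and F5 at -1.66. Mbl2 was at 2.21, Mbl1 at 1.16, C8g at 1.59 and Proc at 1.08.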

How the data were processed

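Poly(A) RNA of 22 mouse livers was sequenced on an Illumina HiSeq. Each library has a deposited table of raw counts of reads on Ensembl genes. HISAT2 2.0.4, HTSeq 0.6.1p1 and the GRCm38 build are named per the submitters' processing notes. Annotation release and strand setting are not given in the sources used here. The 5 summary lines per table stayed out of all totals (reads outside genes were 6.13% to 17.8%). Symbols, positions and exon lengths came from GENCODE M21 (47224 of 47729 lines), promoters from RefSeq. Duplicate libraries were looked for and none were found. Labels do not name separate animals, so p-values measure the spread between these samples.

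Tests used edgeR 4.0.16 in R 4.3.3: filterByExpr, TMM, the 2-sided quasi-likelihood F-test on the groups compared, Benjamini-Hochberg adjustment over all genes tested and a threshold of 0.05; the SE is the log2 fold change divided by the square root of F. The scripts were tested on simulated data. DESeq2 1.42.0, RLE scaling, no filter, a fit of all libraries, a replicate block and leaving out each library were alternatives; leaving out WT libraries 1 and 2 of 20 months was chosen after seeing the data. Members and gene lists were chosen with earlier results of these data known. Full values are given for members past the threshold between KO and WT, up to 6 with the smallest unadjusted p where fewer passed, and Fga, Fgb, Fgg, F2, Serpinc1, C3, C9, Mbl1 and Mbl2. At most 4 related genes per list are named, by adjusted p. The result of 1 related gene list at 4 weeks is not reported here.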

Additional observations from a re-analysis of the deposited data

Results flagged for a closer look

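In 76 groups of 4 to 10 libraries (38 genes in the WT and KO livers of 8 weeks), 3 held a library far from the others, measured as its gap to the nearest library over the range of the group; chance gives about 1 in 20 groups, or 3.8. C2 in WT library 1 of 8 weeks was at 41.5 CPM (gap over range 0.838), Pros1 in KO library 1 of 8 weeks at 436 CPM (0.765) and Serpinc1 in KO library 2 of 8 weeks at 1570.2 CPM (0.691). The KO effect differed among ages for Proc in the joint edgeR test (adjusted p = 0.0154). Between 20 months and 4 weeks it differed for Proc (1.54, adjusted p = 0.00408), F12 (0.82, adjusted p = 0.0336), Pros1 (-2.50, adjusted p = 0.0368), Cfb (2.06, adjusted p = 0.0454) and C8g (2.04, adjusted p = 0.0482), none of which passed without WT libraries 1 and 2 of 20 months, a fit with fewer samples, where the differences were 1.33, 0.82, -1.47, 1.59 and 1.62 in the same order.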

How the results depend on the processing

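At 4 weeks DESeq2 called 4 members higher, and leaving out 1 library gave 0 to 6 higher and 1 to 11 lower. Leaving out 1 library turned the sign of C3 (-0.315 to 0.118) and Serpinc1 (-0.405 to 0.0841) at 4 weeks, of Fga (-0.0681 to 0.355), F2 (-0.0250 to 0.0218), C3 (-0.0642 to 0.136) and Mbl2 (-0.131 to 0.0590) at 8 weeks, and of Mbl2 at 20 months (-0.0556 to 0.432). F2 at 8 weeks was also -0.00495 in DESeq2, -0.000724 with RLE, -0.00790 in the fit of all 22 libraries and -0.0134 with the replicate block, where C3 was -0.0850. Without WT libraries 1 and 2 of 20 months Fga (0.119), Fgg (0.124), Fgb (0.287), C3 (0.169) and Mbl2 (-0.329) turned, as did Cfp between WT ages (-0.0458), where 15 members were lower. The fit of all 22 libraries gave 7 higher and 7 lower members between 4 and 8 weeks in WT. For differences of the KO effect DESeq2 called 8 members jointly, 4 higher for 8 weeks minus 4 weeks, 4 lower for 20 months minus 4 weeks and 1 higher for 20 months minus 8 weeks; without the filter 2 were higher for 20 months minus 4 weeks. Leaving out 1 library gave 0 to 6 members jointly, and for 20 months minus 4 weeks 1 to 5 higher and 0 to 5 lower; without WT libraries 1 and 2 of 20 months the counts were 0, 0 and 0. With the replicate block 7 members were lower and 1 higher at 4 weeks; Proc (adjusted p = 0.0634), Cfb (0.0591) and C1s1 (0.0754) were lost. Deviations of same-numbered libraries correlated between -0.29 and 0.40, not all over 0.1 in any age. Between KO and WT at 20 months the values were 0.40, 0.07 and 0.39. With so few libraries, whether same-numbered ones share more than a number cannot be told. Over all genes at 4 weeks, 576 higher and 624 lower became 1033 and 1015 without the filter, 914 and 855 in the fit of all 22 libraries and 242 and 295 with the replicate block. DESeq2 called 75 higher and 34 lower genes at 8 weeks and 7 and 46 at 20 months, and the replicate block 0 and 0 at 8 weeks. The joint test over all genes called 258, DESeq2 1226, and 33 without WT libraries 1 and 2 of 20 months. For 20 months minus 4 weeks, 318 higher and 400 lower genes became 638 and 917 in DESeq2, 190 and 214 without the filter and 11 and 13 without those WT libraries. For 8 weeks minus 4 weeks, 25 and 27 became 199 and 179 in DESeq2 and 10 and 8 without the filter, and RLE gave 9 higher; for 20 months minus 8 weeks DESeq2 called 20 and 123, and 1 and 13 passed without the filter. The causes were not tested. The 4-week libraries had the fewest counts, which limits Cfb and C5ar1 most.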
